A study of Mus musculus with 6 samples.

Results

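Mouse genes that store, move and regulate iron or break down heme were followed in bulk RNA sequencing libraries of cerebellum from KIKO mice and WT controls. The genes were the ferritin subunits *Fth1* and *Ftl1*, the transport genes *Trf*, *Tfrc*, *Slc11a2* and *Slc40a1*, the iron regulatory protein genes *Aco1* and *Ireb2*, and the heme breakdown genes *Hmox1* and *Blvrb*. They were found by symbol among the 31053 genes of the count table, and all 10 had a row. Of these, 9 were listed for their function. *Blvrb* was chosen by its counts, which had been seen to be lower in KIKO mice, so its difference between the genotypes is described below without a test.

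KIKO mice carry a knock-in and a knock-out allele in all cells, and the WT mice are described in the methods as C57BL/6 littermates. The methods describe CD45+/CD11b+ cells sorted magnetically from the cerebellum of mice aged 6 mo, with no treatment, whereas the sample labels name the cerebellum and the genotype and give neither the sorting, the age nor the sex. The count table holds 2 WT and 3 KIKO libraries, and a WT sample numbered 3 in the labels was not analysed here. Nothing in the labels says that the libraries came from separate mice, so the p-values measure only the spread between these libraries.

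Iron enters most cells bound to transferrin through the transferrin receptor, leaves the endosome through a divalent metal transporter, and is then used, stored in ferritin or exported by ferroportin. The iron regulatory proteins adjust this traffic. When the cell is low in iron they bind hairpins called iron-responsive elements, which blocks translation of ferritin and ferroportin mRNA from the 5′ untranslated region and protects transferrin receptor mRNA through its 3′ untranslated region. One of them, the product of *Aco1*, is a cytosolic aconitase when it holds an iron–sulfur cluster. In the brain, oligodendrocytes and microglia are known as iron-rich cells, oligodendrocytes and choroid plexus make transferrin, and microglia and other macrophages break down heme.

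The iron-responsive elements are shown because they are a sequence known in several of these genes. The transcripts of GENCODE M21 (GRCm38, the build called mm10) were searched on the RNA strand for CNNNNNCAGTGN followed by bases that pair with at least 4 of the 5 bases before the loop, with G–T pairs allowed. Capitals mark the bulged C and the 6 bases of the loop. A 5′ untranslated site was found in *Fth1* (chr19:9982731-9982760, plus strand), in *Ftl1* (chr7:45459779-45459808, minus strand) and in *Slc40a1* (chr1:45925465-45925494, minus strand).
Fth1: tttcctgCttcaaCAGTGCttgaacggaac
Ftl1: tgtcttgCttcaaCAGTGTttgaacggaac
Slc40a1: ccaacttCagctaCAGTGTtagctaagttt
A 3′ untranslated site was found in *Slc11a2* (chr15:100395153-100395182, minus strand), with 4 of the 5 pairs. In *Tfrc*, 4 such sites lay on the plus strand at chr16:32631218-32631247, chr16:32631597-32631626, chr16:32631662-32631691 and chr16:32631709-32631738, in the order given here.
Slc11a2: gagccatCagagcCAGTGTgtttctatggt
Tfrc site 1: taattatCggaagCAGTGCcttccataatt
Tfrc site 2: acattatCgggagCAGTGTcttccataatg
Tfrc site 3: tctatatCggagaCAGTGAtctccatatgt
Tfrc site 4: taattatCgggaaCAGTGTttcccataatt
The same pattern was present in a 5′ untranslated region of 0.939% and in a 3′ untranslated region of 3.99% of the 21842 genes searched, compared with 3 and 2 of the 10 genes here. The element is known from ferritin, ferroportin and transferrin receptor mRNA, so a higher share among these genes follows from their choice. A match describes letters in the annotation and is no measurement of binding in these mice. *Trf*, *Aco1*, *Ireb2*, *Hmox1* and *Blvrb* had no match.

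The libraries held between 1013107 and 1351339 counts, and 10889 genes passed the filter on low counts. Levels are given as normalized CPM, counts scaled to library size and composition by TMM. A signal of 3 counts corresponded to 2.28 to 3.04 CPM, a floor that covers counting error only. KIKO replicate 2 stood apart, with correlations of log2 CPM across genes from 0.672 to 0.747 with the other libraries, compared with 0.884 to 0.931 among the other 4. Markers of cerebellar neurons were present in each library beside those of microglia. The summed CPM of 5 granule neuron markers was between 1406 and 2569 and that of 8 microglial markers between 4382 and 11470.

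No gene of the set that was listed for its function passed the thresholds of the study in edgeR, which were an unadjusted p under 0.05 together with a log2 ratio of KIKO over WT beyond 0.75 either way. *Slc40a1*, *Hmox1*, *Ireb2*, *Slc11a2* and *Trf* had higher mean levels in KIKO than in WT mice, *Ftl1* and *Tfrc* had lower ones, and the means of *Fth1* were nearly equal, and each 95% interval of a fitted log2 ratio included 0. Of the 9 genes, 8 could be tested. Across all 10889 genes tested, 131 passed (1.2%), of which 78 were higher (0.716%) and 53 lower (0.487%) in KIKO mice, and none passed an adjusted p under 0.05 (0%), in edgeR or in DESeq2, beside 131 at an unadjusted p under 0.05 in edgeR. For the 8 genes the unadjusted p was between 0.13 and 0.97 and the adjusted p was 1 for each (edgeR, Benjamini-Hochberg over all genes tested). Of the 8, 6 had a fold change above 0 and 2 below, with a median log2 fold change of 0.28, beside a median of 0.022 over all genes tested. Without KIKO replicate 2, 5 were above 0 and 3 below, with a median of 0.06 (all genes −0.011), and with sample quality weights in limma voom the median was 0.12. The levels of the genotypes were fully apart for 2 of the 8, *Slc40a1* and *Ireb2*, and did not overlap for 16.7% of all genes tested. The standard errors (SE), from 0.358 to 0.666 on the log2 scale, set what could be seen in these libraries. They hold the spread brought by KIKO replicate 2 as well as depth and number of libraries. Without that library the SE of each of the 8 genes was smaller, from 0.275 for *Trf* to 0.526 for *Slc40a1*.

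**Figure D1:**
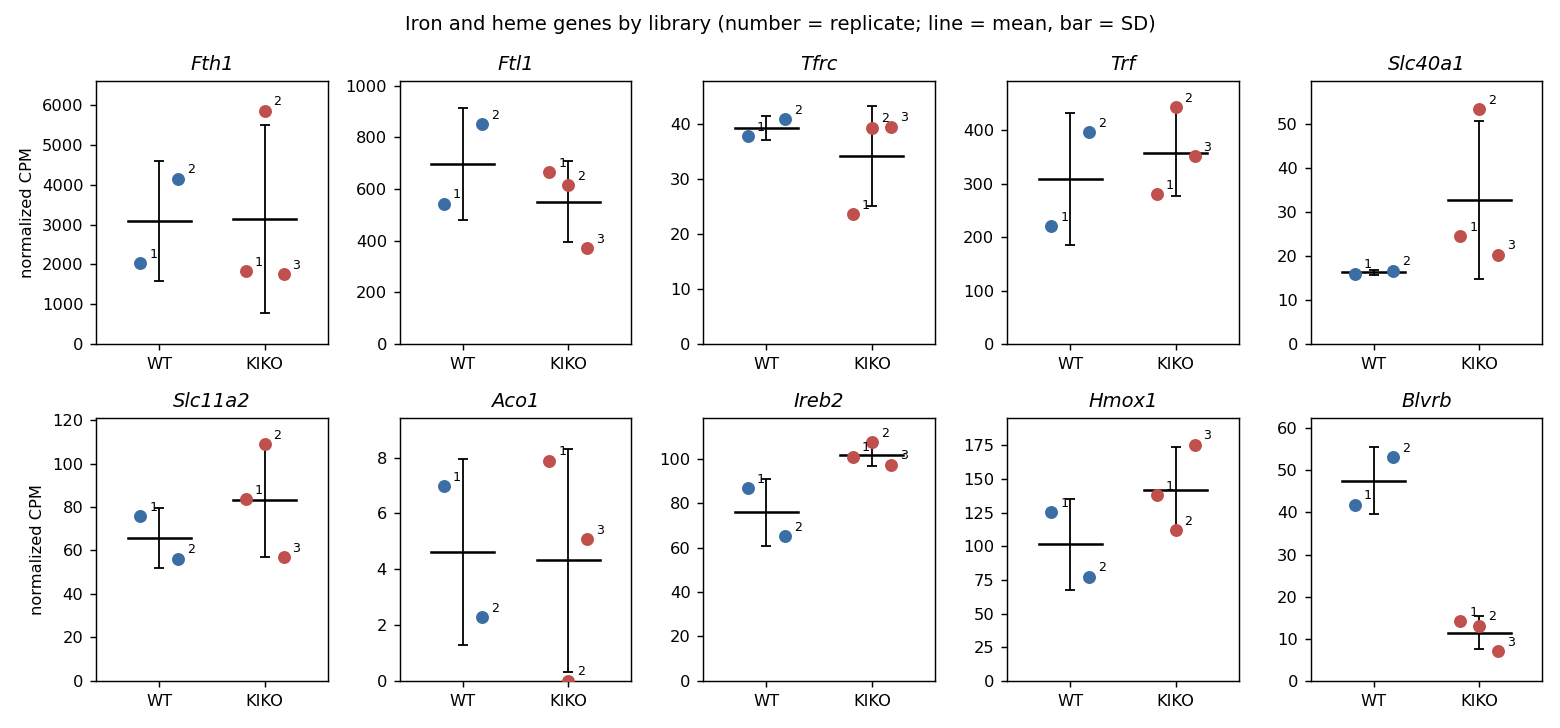
Normalized CPM (y axis, linear, from 0) of the 10 genes in the 2 WT and 3 KIKO libraries. Points are libraries labelled by replicate, lines are group means and bars are SD. *Fth1* is high in WT replicate 2 and KIKO replicate 2, *Slc40a1* is highest in KIKO replicate 2, and *Blvrb*, which was chosen for this difference, lies between 7.10 and 14.2 in KIKO and between 41.8 and 53.1 in WT mice.

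*Fth1* (chromosome 19, 9980598 to 9985098), which encodes the heavy subunit of ferritin that oxidizes iron for storage, had the highest median level per kb of exon among the 10 genes. It had 2025 and 4151 normalized CPM in WT replicates 1 and 2, and 1824, 5858 and 1750 in KIKO replicates 1, 2 and 3. Replicate 2 of each genotype was high and the other 3 libraries were close to each other, so the groups overlapped fully. Mean levels of *Fth1* were 3088 ± 1500 in WT (SD, n = 2) and 3144 ± 2350 in KIKO mice (SD, n = 3). *Fth1* had a fitted log2 ratio of 0.026 (SE 0.67, 95% interval −1.50 to 1.55, edgeR's adjusted p = 1), and the interval runs from 0.354-fold to 2.92-fold. This value rested on KIKO replicate 2. Without it the KIKO mean was 1787 and the log2 fold change −0.80 (SE 0.30, adjusted p = 0.489 in edgeR's test), past the unadjusted thresholds in the lower direction, as were 364 of the 10373 genes then tested (3.51%). In the higher direction 2.94% passed without this library, and 6.45% in all. Without WT replicate 1 the log2 fold change was −0.42, and without WT replicate 2 it was 0.61.

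*Ftl1* (chromosome 7, 45457944 to 45459884), the light subunit that helps the iron core to form, had 542.9 and 851.0 normalized CPM in WT replicates 1 and 2, and 664.0, 615.1 and 371.4 in KIKO replicates 1, 2 and 3. It was not raised in KIKO replicate 2, unlike *Fth1*, and its lowest value was in KIKO replicate 3. Mean levels of *Ftl1* were 696.9 ± 218 in WT (SD, n = 2) and 550.2 ± 157 in KIKO mice (SD, n = 3). *Ftl1* had a fitted log2 ratio of −0.34 (SE 0.43, 95% interval −1.32 to 0.64, edgeR's adjusted p = 1). Without WT replicate 2 the log2 fold change was 0.0042. Of the 7 other rows of the table whose symbol starts with Fth or Ftl, 6 had no count, and *Ftl1-ps1* had 3 counts, all in WT replicate 2. Ferritin has many near-identical copies in the genome. How multi-mapping reads were treated is not given in the sources used here, so reads of *Fth1* and *Ftl1* could have been lost or shared. Exons of *Ftl1* also overlap *Gm22133* and, on the other strand, *Gm10252*.

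Within a library, the ratio of *Fth1* to *Ftl1* counts does not depend on the scaling. It was 3.73 and 4.88 in WT replicates 1 and 2, and 2.75, 9.52 and 4.71 in KIKO replicates 1, 2 and 3. The lowest and the highest ratio were both from KIKO mice. For WT mice the mean log2 ratio was 2.09 ± 0.27 (SD, n = 2), against 2.31 ± 0.90 (SD, n = 3), a difference of 0.22 (exact two-sided permutation test, p = 0.8). With 2 against 3 libraries, this test cannot give a p below 0.1. Without KIKO replicate 2 the difference was −0.25.

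The libraries high in *Fth1* were also high in the summed markers of most of the non-neuronal cell types listed, among them oligodendrocytes, microglia and endothelial cells. The summed CPM of 7 oligodendrocyte markers was 5226 and 11930 in WT replicates 1 and 2, and 4598, 19020 and 5906 in KIKO replicates 1, 2 and 3, with the same 2 libraries on top. All 7 markers had counts in every library, and 4 of the 7 were highest in WT replicate 2 and KIKO replicate 2, a pattern shown by 18.3% of all genes tested. The 8 microglial markers summed to 4947 and 6358 in WT, and to 4382, 11470 and 5145 in KIKO mice, and 5 of the 8 showed the pattern. The 6 endothelial markers summed to 423.3 and 807.0 in WT, and to 467.7, 765.0 and 442.4 in KIKO mice, with 4 of the 6 in the pattern. The summed markers of border macrophages, red blood cells, choroid plexus and astrocytes were also highest in these 2 libraries. In these lists 2, 2, 3 and 1 of the tested markers showed the pattern. Single markers went the other way. *Aqp4* and *Gja1* of the astrocyte list and *Cldn5* of the endothelial list were lowest in these 2 libraries. *Mag* of the oligodendrocyte list was lowest in KIKO replicate 2. The astrocyte sum came mostly from *Slc1a3*, with 87.7 and 218.4 normalized CPM in WT and 137.2, 219.5 and 119.7 in KIKO mice. The summed monocyte and neutrophil markers were highest in KIKO replicate 1. Neuronal markers lay the other way, with the lowest sum of each genotype in the same 2 libraries. The 5 granule neuron markers summed to 2377 and 1587 in WT, and to 2361, 1406 and 2569 in KIKO mice, and the 4 Purkinje neuron markers to 267.0 and 164.6 against 437.7, 224.9 and 410.0. No marker of the oligodendrocyte, microglial, endothelial, granule neuron and Purkinje neuron lists was at 0 in any library. Fewer cells of a type and less RNA per cell cannot be told apart in bulk libraries, and the part of these markers in the level of *Fth1* was not tested.

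**Figure D2:**
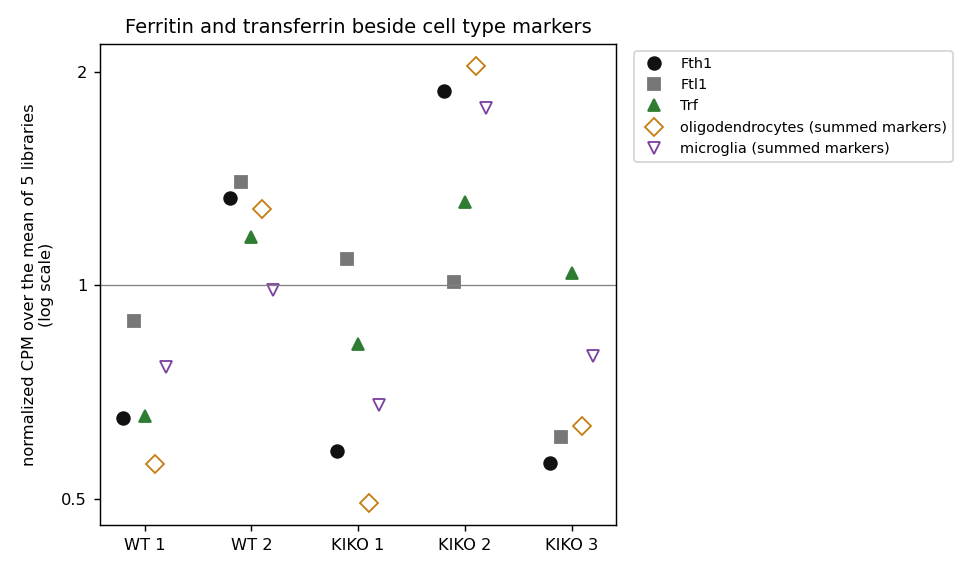
Level of *Fth1*, *Ftl1* and *Trf* (filled points) and of the summed oligodendrocyte and microglial markers (open points) in each library (x axis), as normalized CPM over the mean of the 5 libraries (y axis, log scale). *Fth1* is at 1.33 in WT replicate 2 and 1.88 in KIKO replicate 2 and from 0.561 to 0.649 in the other 3 libraries, beside 1.28, 2.04 and 0.493 to 0.633 for the oligodendrocyte markers, and *Ftl1* is at 1.01 in KIKO replicate 2. The sums of most other non-neuronal marker lists, not drawn, are also highest in replicate 2 of each genotype, though single markers differ.

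Among the transport genes, *Trf* (chromosome 9, 103204001 to 103230444), which encodes transferrin, the iron carrier of plasma and brain fluid, had 221.1 and 396.7 normalized CPM in WT replicates 1 and 2, and 280.0, 442.8 and 351.1 in KIKO replicates 1, 2 and 3. As with *Fth1*, replicate 2 was the highest library of each genotype. Mean levels of *Trf* were 308.9 ± 124 in WT (SD, n = 2) and 358.0 ± 81.6 in KIKO mice (SD, n = 3). *Trf* had a fitted log2 ratio of 0.21 (SE 0.42, 95% interval −0.75 to 1.17, edgeR's adjusted p = 1). It was 0.019 without KIKO replicate 2, −0.16 without WT replicate 1 and 0.68 without WT replicate 2. Exons of *Trf* overlap those of *Gm20425* on the same strand. The 6 choroid plexus markers, all with counts in every library, summed to 10680 and 11740 normalized CPM in WT and to 7948, 14240 and 6648 in KIKO mice, mostly from the transthyretin gene *Ttr*, with 6550 to 13950. Their part in the level of *Trf* was not tested.

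*Tfrc* (chromosome 16, 32608920 to 32632794), the transferrin receptor, had 37.9 and 41.0 normalized CPM in WT replicates 1 and 2, and 23.7, 39.4 and 39.6 in KIKO replicates 1, 2 and 3. Most of the libraries lay close together and KIKO replicate 1 was lower. Mean levels of *Tfrc* were 39.4 ± 2.20 in WT (SD, n = 2) and 34.2 ± 9.14 in KIKO mice (SD, n = 3). *Tfrc* had a fitted log2 ratio of −0.21 (SE 0.45, 95% interval −1.24 to 0.83, edgeR's adjusted p = 1), and without KIKO replicate 1 it was 0.0054. *Slc11a2* (chromosome 15, 100387898 to 100425072), the divalent metal transporter that takes iron out of the endosome, had 75.7 and 56.1 normalized CPM in WT, and 83.6, 109.0 and 56.8 in KIKO mice. KIKO replicates 1 and 2 were above both WT libraries and KIKO replicate 3 lay between them. Its log2 fold change was 0.34 (SE 0.42, 95% interval −0.62 to 1.30, edgeR's adjusted p = 1) and 0.10 without KIKO replicate 2. Its exons overlap the gene *Gm5475* on the other strand.

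*Slc40a1* (chromosome 1, 45908068 to 45926523), which encodes ferroportin, the exporter of iron from cells, had the highest fold change of the 8 genes. It had 15.9 and 16.7 normalized CPM in WT replicates 1 and 2, from 16 and 22 counts, and 24.5, 53.3 and 20.3 in KIKO replicates 1, 2 and 3, from 31, 69 and 20 counts. All 3 KIKO libraries were above both WT libraries, and KIKO replicate 2 was far above the other 2. Mean levels of *Slc40a1* were 16.3 ± 0.53 in WT (SD, n = 2) and 32.7 ± 18 in KIKO mice (SD, n = 3). *Slc40a1* had a fitted log2 ratio of 1.0 (SE 0.60, 95% interval −0.37 to 2.38, edgeR's adjusted p = 1). Without KIKO replicate 2 the KIKO mean was 22.4 and the log2 fold change 0.45. The fold change was above 0 in each of the 13 other settings, from 0.45 to 1.25, and passed the thresholds in none. Ferroportin is also a gene of macrophages at the borders of the brain. The 7 markers of these cells summed to 229.1 and 301.9 normalized CPM in WT and to 261.8, 437.4 and 236.4 in KIKO mice. The highest sum was again in KIKO replicate 2, as it was for the microglial markers. Single markers in that library went both ways. *Pf4* had 160.7 there, beside 22.3 to 59.8 in the other libraries. *Lyve1* had 16.2, beside 40.6 to 56.1, and *Ms4a7* was at 0. The part of these markers in the level of *Slc40a1* was not tested.

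**Figure D3:**
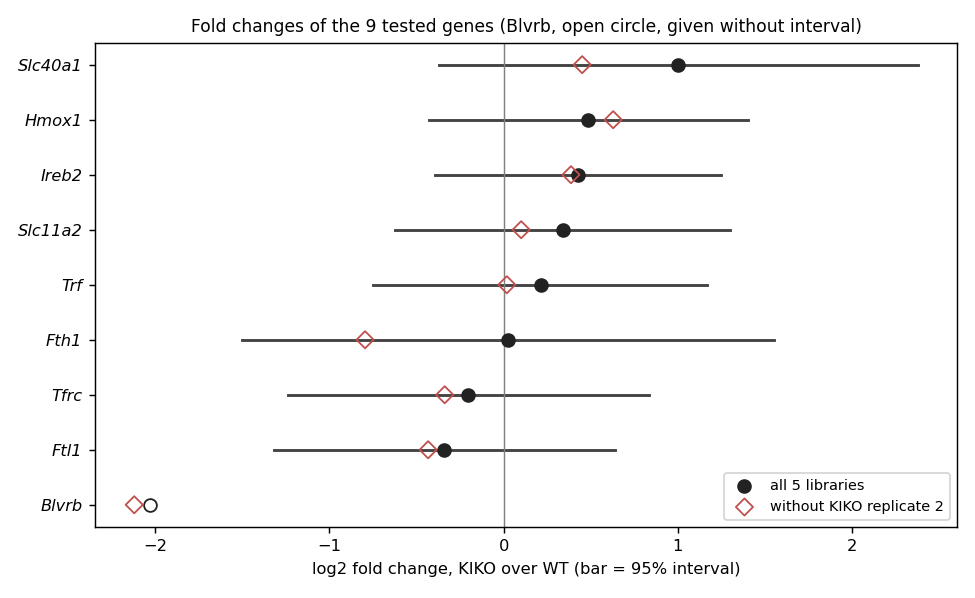
Log2 fold change of KIKO over WT (x axis) for the 9 genes that could be tested (y axis), from edgeR on all 5 libraries (circles, with 95% intervals) and without KIKO replicate 2 (open diamonds). All 8 intervals include 0, *Fth1* moves from 0.026 to −0.80, and *Blvrb* (open circle) is drawn without an interval because it was chosen for its difference.

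Of the iron regulatory proteins, *Ireb2* (chromosome 9, 54863789 to 54912530), whose protein is degraded when iron is plentiful, had 86.7 and 65.2 normalized CPM in WT replicates 1 and 2, and 100.9, 107.4 and 97.4 in KIKO replicates 1, 2 and 3. The 3 KIKO libraries lay close together and above both WT libraries. Mean levels of *Ireb2* were 75.9 ± 15.2 in WT (SD, n = 2) and 101.9 ± 5.07 in KIKO mice (SD, n = 3). *Ireb2* had a fitted log2 ratio of 0.43 (SE 0.36, 95% interval −0.39 to 1.25, edgeR's adjusted p = 1). It was between 0.22 and 0.63 in the 13 other settings, with 0.39 without KIKO replicate 2, and passed the thresholds in none. *Aco1* (chromosome 4, 40143081 to 40198338) was at the limit of detection. It had 7 and 3 counts in WT replicates 1 and 2, and 10, 0 and 5 in KIKO replicates 1, 2 and 3, so it could not be tested and no difference was detectable at this depth. The log2 ratio of *Aco1* to *Ireb2* counts, with 0.5 added to each, was −3.54 and −4.63 in WT, and −3.61, −8.12 and −4.13 in KIKO mice. The value of KIKO replicate 2, with no count of *Aco1*, is set by the 0.5 added, so no difference is read from this ratio.

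Heme breakdown begins with heme oxygenase, which frees the iron and makes biliverdin, and continues with biliverdin reductase, which makes bilirubin. *Hmox1* (chromosome 8, 75093621 to 75100589), the inducible heme oxygenase, had 125.5 and 77.4 normalized CPM in WT replicates 1 and 2, and 138.0, 112.0 and 175.6 in KIKO replicates 1, 2 and 3. The highest value was in KIKO replicate 3 and the lowest in WT replicate 2, and KIKO replicate 2 lay between the WT libraries. Mean levels of *Hmox1* were 101.4 ± 34.0 in WT (SD, n = 2) and 141.9 ± 31.9 in KIKO mice (SD, n = 3). *Hmox1* had a fitted log2 ratio of 0.48 (SE 0.40, 95% interval −0.43 to 1.4, edgeR's adjusted p = 1). Without KIKO replicate 2 it was 0.63 (edgeR's test, unadjusted p = 0.0399, adjusted p = 0.577). An unadjusted p under 0.05 was then reached by 852 of the 10373 genes tested. With sample quality weights it was 0.63 as well (limma voom, unadjusted p = 0.0491, adjusted p = 0.825), beside 624 of 10889 genes with an unadjusted p under 0.05. Both fold changes were below the threshold of 0.75. The log2 fold change of *Hmox1* was above 0 in each of the 13 other settings, from 0.16 without WT replicate 2 to 0.87 without WT replicate 1. The constitutive heme oxygenase *Hmox2* had 77.7 and 40.2 normalized CPM in WT, and 44.2, 41.7 and 32.5 in KIKO mice, which gave a fitted log2 ratio of −0.57 (SE 0.45, edgeR's adjusted p = 1). The ratio of *Hmox1* to *Hmox2* counts within a library was 1.61 and 1.92 in WT replicates 1 and 2, and 3.11, 2.67 and 5.34 in KIKO replicates 1, 2 and 3, so every KIKO ratio was above both WT ratios. The log2 ratio differed by 1.01 (0.81 ± 0.18, SD, n = 2, against 1.82 ± 0.53, SD, n = 3; exact two-sided permutation test, p = 0.2). It stayed between 0.71 and 1.21 with each library left out. Over 3 ratios, *Aco1* to *Ireb2* included, the Benjamini-Hochberg adjusted p was 0.6 for *Hmox1* to *Hmox2* and 0.8 for each of the others (exact permutation test).

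*Blvrb* (chromosome 7, 27447978 to 27466144) encodes biliverdin reductase B, which also reduces flavins and is abundant in red blood cells. It had 42 and 70 counts in WT replicates 1 and 2, and 18, 17 and 7 in KIKO replicates 1, 2 and 3, which gave 41.8 and 53.1 against 14.2, 13.1 and 7.10 normalized CPM. All KIKO libraries were below both WT libraries, and KIKO replicate 2 did not stand apart. Mean levels of *Blvrb* were 47.5 ± 7.96 in WT (SD, n = 2) and 11.5 ± 3.83 in KIKO mice (SD, n = 3), and the fitted level in KIKO was 0.245 times that in WT mice. These are the values for which the gene was chosen. The log2 fold change was between −2.20 and −1.78 in the 12 other settings in which the gene passed the filter. Its partner *Blvra*, which encodes biliverdin reductase A, the main enzyme of this step in adults, had 28.9 and 33.4 normalized CPM in WT, and 33.1, 48.7 and 32.5 in KIKO mice, which gave a fitted log2 ratio of 0.29 (SE 0.45, edgeR's adjusted p = 1). The ratio of *Blvrb* to *Blvra* counts was 1.44 and 1.58 in WT replicates 1 and 2, and 0.435, 0.276 and 0.231 in KIKO replicates 1, 2 and 3. The 6 red blood cell markers, mostly hemoglobin, summed to 1033 and 2749 normalized CPM in WT and to 1897, 2920 and 1674 in KIKO mice. These groups overlapped. Hemoglobin genes come in near-identical copies. The border macrophage markers, given with *Slc40a1*, overlapped as well. The 6 markers of monocytes and neutrophils, of which 2 had counts in every library and *Ly6c2* in none, were apart only in their sum. This sum was 16.9 and 31.1 normalized CPM in WT and 95.4, 32.5 and 45.7 in KIKO mice. The genotypes overlapped for both markers with counts in every library. *S100a8* had 15.93 in WT replicate 2 and 13.19 in KIKO replicate 3. *S100a9* had 10.96 in WT replicate 1 and 9.273 in KIKO replicate 2. The part of these marker lists in the levels of *Blvrb*, *Slc40a1* and *Ireb2* was not tested.

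Per kb of annotated exon, which includes retained introns and takes no account of reads placed near the 3′ end, the order of the levels by the median of the 5 libraries was *Fth1* (584 CPM per kb, 505 to 1690), *Ftl1* (459, 277 to 635), *Trf* (106, 66.6 to 133), *Hmox1* (71.7, 44.2 to 100), *Slc11a2* (11.9, 8.83 to 17.1), *Ireb2* (10.3, 6.88 to 11.3), *Tfrc* (6.37, 3.83 to 6.62), *Blvrb* (5.10, 2.55 to 19.1), *Slc40a1* (2.26, 1.77 to 5.92) and *Aco1* (1.13, 0 to 1.75). The ranges of most neighbours in this order overlapped. They were apart between *Ftl1* and *Trf*, between *Hmox1* and *Slc11a2*, between *Ireb2* and *Tfrc*, and between *Slc40a1* and *Aco1*. Across libraries, *Blvrb* had the widest span of the 9 genes with counts in every library, 7.47 times between its lowest and highest CPM. It was chosen for its difference between the genotypes, so this rank follows from that choice and is no separate finding. Of the others, *Fth1* and *Slc40a1* varied most, with 3.35 times each, and *Ireb2* varied least with 1.65 times.

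The rest of the pathway was read from 7 lists that hold 54 other iron and heme genes, of which 39 could be tested. None of the 39 passed the thresholds in either direction in edgeR's test, beside 1.2% of all genes tested, and the smallest unadjusted p was 0.125, for the hemoglobin scavenger receptor *Cd163*. Of the 39, 20 had a fold change above 0 and 19 below, with a median log2 fold change of 0.019. The groups did not overlap for 6 of the 39, beside 16.7% of all genes tested. In the list for iron storage and ferritin turnover, all 3 tested genes had a fold change above 0. The highest were the iron chaperones *Pcbp2*, with 177.3 and 173.7 normalized CPM in WT and 178.2, 347.0 and 149.2 in KIKO mice, and *Pcbp1*, with 121.5 and 119.8 against 99.4, 296.7 and 81.2. Both were highest in KIKO replicate 2, and without it both fold changes turned below 0. *Ncoa4*, the receptor that delivers ferritin for breakdown, had a log2 fold change of 0.18.

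For iron uptake, 7 of 12 genes could be tested, 5 with a fold change above 0 and 2 below. *Lrp1*, which takes up heme bound to hemopexin, had 269.0 and 296.6 normalized CPM in WT and 289.4, 383.3 and 251.7 in KIKO mice, and the metalloreductase *Steap2* 46.8 and 47.8 against 44.95, 27.8 and 35.5. *Steap2* was below the WT libraries in all 3 KIKO libraries, with a log2 fold change of −0.39 (SE 0.43, edgeR's adjusted p = 1), and of −0.23 without KIKO replicate 2. For iron export, ceruloplasmin (*Cp*), a ferroxidase, was the one gene of 5 that could be tested, with 66.7 and 56.9 normalized CPM in WT and 31.6, 28.6 and 73.1 in KIKO mice, and hepcidin (*Hamp*) had no count. Among the regulators, 5 of 7 were tested. *Epas1*, a hypoxia-inducible factor, had 100.6 and 150.9 against 90.7, 145.3 and 68.0 normalized CPM. *Fbxl5*, which marks the product of *Ireb2* for degradation, had 68.7 and 51.6 against 59.9, 163.0 and 67.0, with its high value in KIKO replicate 2 and a log2 fold change of 0.69 that was 0.077 without that library.

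For heme synthesis, 8 of 9 genes were tested, 3 with a fold change above 0 and 5 below. *Alas1*, which catalyses the first step outside red blood cells, had 79.7 and 63.0 normalized CPM in WT and 71.8, 87.3 and 97.4 in KIKO mice, and *Urod* 74.7 and 49.3 against 45.7, 47.9 and 63.9. For heme transport and breakdown, 11 of 13 were tested, 4 above 0 and 7 below. The heme transporter *Slc48a1* had 107.6 and 126.7 against 90.7, 129.0 and 101.5 normalized CPM, and *Por*, which passes electrons to heme oxygenase, 68.7 and 72.8 against 89.1, 43.3 and 59.9. Of the 4 mitochondrial iron and heme carriers, *Slc25a37*, the mitochondrial iron importer mitoferrin 1, had 62.8 and 44.8 in WT and 64.7, 108.2 and 74.1 in KIKO mice. All KIKO libraries were above both WT libraries, with a log2 fold change of 0.62 (SE 0.42, edgeR's adjusted p = 1). Its relative *Slc25a28*, mitoferrin 2, lay on the other side, with 37.9 and 37.2 against 35.5, 22.4 and 32.5 and a log2 fold change of −0.32 (SE 0.45, edgeR's adjusted p = 1). Its KIKO libraries were all below both WT libraries. Neither gene passed the test, and without KIKO replicate 2 the log2 fold changes were 0.37 for *Slc25a37* and −0.14 for *Slc25a28*. Without WT replicate 2 that of *Slc25a37* was 0.37 as well.

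**Figure D4:**
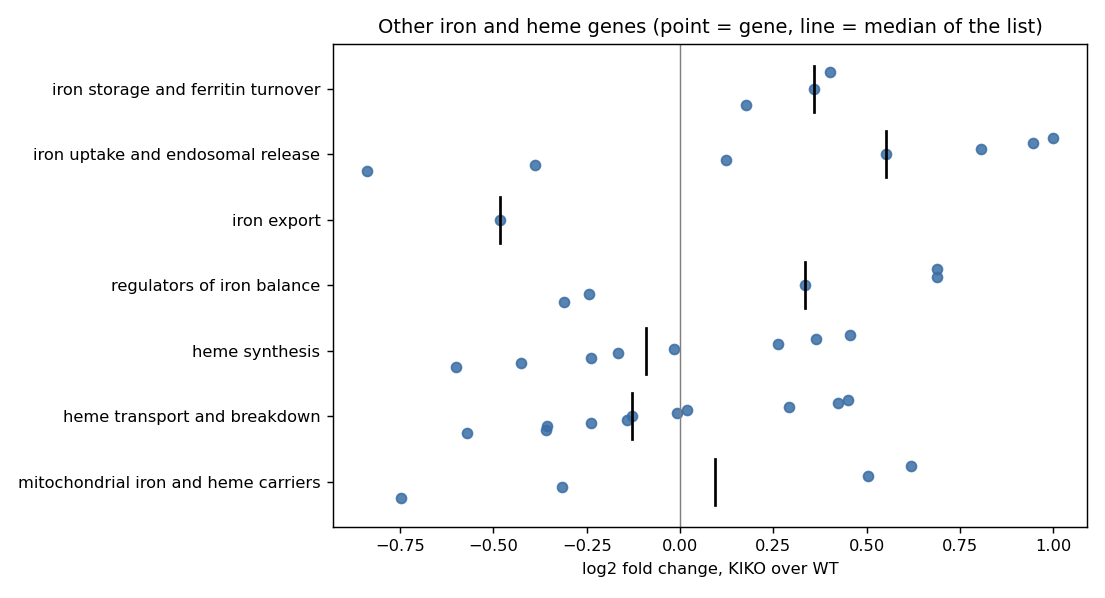
Log2 fold change of KIKO over WT (x axis) of the 39 other iron and heme genes that could be tested, by list (y axis). Points are genes and black lines are medians. The values lie on both sides of 0, from −0.84 to 1.0, and none of the 39 genes passed the thresholds.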

How the data were processed

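The libraries analysed were 2 from WT and 3 from KIKO mice. Per the submitters' notes, Trimmomatic, HISAT2, featureCounts and DESeq2 were used with the build mm10. The gene annotation, the strand setting and the handling of multi-mapping reads are not given in the sources used here. The methods name a digital mRNA-seq service, the labels a stranded kit. The authors deposited a table of raw gene counts, and another of log2 values that equal log2(count / size factor + 1) with DESeq2 size factors, which returned the counts within 0.01 for 100% of values. Columns were matched to samples by name. 2 further columns of per-sample values match no label and were not used.

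Symbols came from GENCODE M21 for 30934 of 31053 identifiers. Low genes were removed with filterByExpr of edgeR 4.0.16 under R 4.3.3 (minimum count 10, minimum total 15). The remaining 10889 genes were scaled by TMM, fitted with glmQLFit, tested two-sided with glmQLFTest, and their p-values adjusted together (Benjamini-Hochberg). Intervals are 95% and use the quasi-likelihood standard error. Within-library ratios used counts with 0.5 added (or 1 as an alternative) and were tested by exact two-sided permutation of libraries.

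The genes and lists were chosen with earlier results of these data known. Named are the 10 genes, list genes past the thresholds, the 2 most abundant tested genes of each list, and *Fth* or *Ftl* rows with counts. *Ncoa4*, *Cd163*, *Hamp*, *Hmox2* and *Blvra* are named as well for their role or ratio. Alternatives were RLE factors, library size alone, 2 other filters, DESeq2 1.42.0, limma 3.58.1 with trend on the deposited log2 values, limma voom with sample quality weights, a replicate block, and leaving out each library. Some items are not reported here.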

Additional observations from a re-analysis of the deposited data

How the results depend on the processing

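Of all genes tested, 131 passed the thresholds. This count was 383 with all genes of at least 1 count, 519 with sample quality weights and 56 to 669 with each library left out, the highest without KIKO replicate 2 (305 higher, 364 lower) and the lowest without WT replicate 1. Of the genes called, 59.5% were higher in KIKO mice. DESeq2 gave 70.6%, library size without TMM 68.6%, sample quality weights 39.1% and the replicate block 40.2%. An adjusted p under 0.05 was reached by 1 gene with all genes of at least 1 count and by 0 to 5 genes with each library left out. With 1 WT library left, that library is assumed to vary like the KIKO libraries. Of the 8 tested genes of the set, 0 to 1 passed with each library left out (*Fth1* without KIKO replicate 2). Of the 54 pathway genes, 1 passed with all genes of at least 1 count (*Steap4*), and 0 to 1 with each library left out (*Steap1* without WT replicate 2, *Mcoln1* without KIKO replicate 2).

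The labels number the libraries, but nothing else pairs them. Deviations of the 2 same-numbered pairs from their group means correlated with r of 0.18 and 0.239, and those of WT replicate 1 and KIKO replicate 3 with 0.218. The deviations of the 2 WT libraries mirror each other (r of −1). The other values are therefore tied together, and no pairing is read from them. With the replicate block, 271 genes passed (109 higher, 162 lower), and none of the 8 genes or the pathway genes did.

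With each library left out, the log2 fold change ranged from −0.795 to 0.609 for *Fth1*, −0.639 to 0.0042 for *Ftl1*, −0.338 to 0.00543 for *Tfrc*, −0.16 to 0.677 for *Trf*, −0.419 to 0.712 for *Pcbp1*, −0.103 to 0.58 for *Pcbp2*, −0.0685 to 0.249 for *Lrp1*, −0.523 to 0.0817 for *Urod* and −0.456 to 0.0751 for *Por*. With sample quality weights it was −0.628 for *Fth1*, −0.337 for *Pcbp1*, −0.0496 for *Pcbp2*, −0.0367 for *Lrp1* and 0.0554 for *Por*, and *Fth1* was at −0.118 with limma with trend. The difference in log2 ratio ranged from −0.246 to 0.651 for *Fth1* to *Ftl1* and from −2.04 to 0.213 for *Aco1* to *Ireb2*, where KIKO replicate 2 had no count of *Aco1*. The cause was not tested. *Slc40a1*, *Slc11a2*, *Ireb2* and *Hmox1* stayed above 0, and *Blvrb* below 0, in every alternative that gave them a value.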

Other observations

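The library that stood apart also differed in iron genes of low count. These were chosen after their values were seen. That library differed across all genes, and how many other genes of low count did so was not counted. No trait of iron genes is therefore read from them. *Steap4*, a metalloreductase, had 35 counts in KIKO replicate 2 and 0 in each other library. The zinc and iron transporter *Slc39a14* had 0 counts in KIKO replicate 2, and 16 and 12 in the WT and 21 and 4 in the other KIKO libraries. The ferritin receptor *Scara5* had 0 as well, beside 5 and 2 counts in the WT and 3 and 1 in the other KIKO libraries. Most of these lie at or under the floor of 3 counts, so no difference is read for *Scara5*. *Mcoln1*, an endolysosomal channel that can release iron, had 3.09 normalized CPM in KIKO replicate 2, 21.9 and 21.2 in the WT libraries, and 53.6 and 38.6 in KIKO replicates 1 and 3.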
